A study of Mus musculus with 16 samples.

Results

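Day 4 definitive endoderm (DE) was compared with day 4 mesoderm (MES), 2 arrays against 2, out of 16 Affymetrix Mouse Gene ST 1.0 arrays in 8 groups. DE cells were Foxa2+ and CD24 high after 4 days in endoderm medium with 12 ng/ml activin A. MES cells were T+ and CD24 negative after 4 days in that medium with activin A at 3 ng/ml and Bmp4 at 7.5 ng/ml added, and the sources do not say whether the smaller activin dose replaced the larger. Both media were used on feeders that express Wnt3a. At the same day and in the same media, endoderm progenitors (DEP, Foxa2+ and CD24 low) and mesoderm progenitors (MP, T+ and CD24 low) were sorted, and undifferentiated embryonic stem cells (ES) were taken from fibroblast feeders without sorting. Every group came from 1 knock-in reporter line, TGFP/+; Foxa2tagRFP/+, in which GFP reports T and tagRFP reports Foxa2, so that every cell has 1 unmodified allele of each gene; the labels give the line as E14.1 on a 129/Ola background, and the methods name G4. The labels call the samples biological replicates without saying whether they are separate differentiations, so that the p-values measure only the spread between these samples, which may be technical.

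The comparison covered 18716 genes of the 19938 that a probe set with a single symbol names, each read from its brightest probe set among the 32000 of highest mean. Values are log2 RMA values as the authors deposited them, and a difference of 1 is a doubling. Genes are called higher or lower in DE by limma, fitted to all 16 arrays with 1 mean per group. A call needs an absolute log2 fold change (FC) above 1 and a p below 0.05 after Benjamini–Hochberg adjustment over the 32000 probe sets kept. The sort itself rested on Foxa2 and Cd24a, which are no finding; T was not analysed here. Foxa2 read 10.41 and 10.33 in DE, against 7.86 and 7.78 in MES, and Cd24a 13.35 and 13.45 against 11.04 and 11.12. Lineage, CD24 gate and medium change together between DE and MES and cannot be told apart there. In sorted bulk samples, fewer cells of a type and less RNA per cell cannot be told apart either.

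Endoderm and mesoderm both arise from the epiblast at the primitive streak during gastrulation. Cells that form mesoderm undergo epithelial-to-mesenchymal transition (EMT), in which Snai, Zeb and Twist factors repress cadherin, claudin and polarity genes and the cells lose their junctions. High Nodal or activin signalling is known to favour endoderm, through factors such as Eomes, Gata6, Sox17 and the Foxa proteins. Bmp4 and Wnt signals pattern mesoderm into heart, blood, vessel and body wall precursors. The anterior endoderm is in turn a source of secreted proteins that block Wnt, Nodal and Bmp signals. The comparison therefore asks which transcription factors, signals and junction genes separate these germ layers once they have been sorted.

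DE and MES differed in 1472 genes, 7.86% of those tested. Of these, 797 were higher in DE (4.26%) and 675 were lower (3.61%), while the median over all 18716 genes was 0.02. These shares are the background for the list counts below. In a list of 15 to 20 genes, 1 called member in a direction is close to them. The balance moved with the processing: centring the arrays on common reference genes gave 1314 higher and 401 lower, with a median of 0.35, and an adjusted p below 0.05 alone gave 2310 higher and 2735 lower. The genes higher in DE had the larger differences: 277 passed a log2 FC of 2, 107 passed 3 and 38 passed 4, against 157, 45 and 15 among the genes lower in DE. The genes higher in DE had a median level of 9.98 in DE, 7.92 in MES and 8.36 in ES. Those lower in DE had a median of 7.66 in DE, 9.48 in MES and 9.01 in ES. In medians, therefore, DE left the ES level further than MES did in both sets. The 16 arrays had medians between 7.725 and 7.803, replicate arrays correlated at r between 0.987 and 0.994 over the probe sets kept, and a DE array correlated with an MES array at r between 0.957 and 0.961. The precision of every value is limited by having 2 arrays a group.

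**Figure D1:**
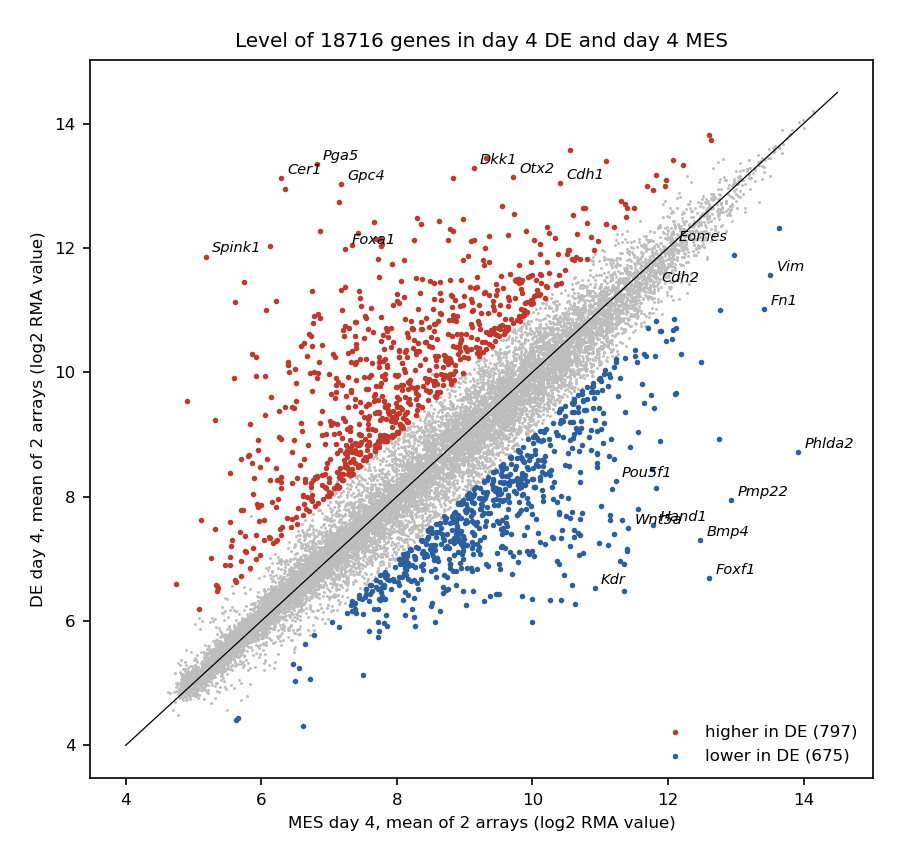
Each point is 1 of 18716 genes, with its mean log2 RMA value over the 2 MES arrays on the x axis and over the 2 DE arrays on the y axis; red genes were higher in DE (797), blue genes lower (675), and the line marks equal levels. Cer1, Spink1 and Srgn lie farthest above the line and Foxf1 lies at 6.69 in DE and 12.61 in MES, while Eomes lies on the line at 12.05.

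Cer1, the secreted protein Cerberus, which binds and blocks Nodal, Bmp and Wnt proteins, had the largest difference of all genes. It read 13.11 and 13.13 in DE, against 6.50 and 6.10 in MES and a mean of 6.06 in ES (log2 FC 6.82, standard error (SE) 0.28, adjusted p = 1.94e-08), a 113-fold difference. MES thus held Cer1 at about the ES level. Close behind were genes of gut, liver and pancreas. Spink1, a secreted trypsin inhibitor, read 11.86 and 11.85 in DE, against 5.37 and 5.00 in MES (log2 FC 6.67, SE 0.38, adjusted p = 2.14e-07). Pga5, a pepsinogen, read 13.33 and 13.37 in DE, against 6.91 and 6.74 in MES (log2 FC 6.53, SE 0.19, adjusted p = 1.93e-09). Rfx6, a winged-helix factor needed for pancreatic islet development, read 11.06 and 11.20 in DE, against 5.65 and 5.57 in MES (log2 FC 5.52, SE 0.23, adjusted p = 2.28e-08). Tph1, the enzyme that starts serotonin synthesis outside the brain, was 59.7-fold higher and Cpn1, a carboxypeptidase of plasma made in liver, 30.3-fold higher.

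The other genes at the top included surface proteins, an insulin signalling adaptor and further forkhead factors. Gpc4, a glypican that binds growth factors at the cell surface, read 13.05 and 13.00 in DE, against 7.28 and 7.08 in MES (log2 FC 5.85, SE 0.17, adjusted p = 1.93e-09); at 9.91 in ES, it lay between the 2 lineages. Srgn, the core protein of an intracellular proteoglycan, read 12.88 and 13.02 in DE, against 6.52 and 6.20 in MES. Its SE of 0.96, pooled over the 8 groups, was the widest of the 50 genes at both ends (log2 FC 6.59, adjusted p = 3.82e-04). Irs4, an adaptor of the insulin and Igf receptors, read 12.70 and 12.78 in DE, against 7.10 and 7.21 in MES (log2 FC 5.59). Foxq1 (log2 FC 4.81) and Foxa1 (log2 FC 4.75) are forkhead factors, and Foxa1 acts with Foxa2 in gut endoderm. Pilra (5.69) and Pilrb1 (4.31), paired immune receptors, are close paralogs, and which of them was measured is uncertain. The 25 leading genes also held Sfrp5, Clic6, Gramd1b, Aff2, Akr1c19, Fzd8, Tmem184a, Slc34a2, Lefty1, Hesx1, Cldn6 and Ajap1, with log2 FC between 4.29 and 5.41.

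At the other end stood Foxf1, a forkhead factor of lateral plate and splanchnic mesoderm. It read 6.76 and 6.62 in DE, against 12.53 and 12.68 in MES and a mean of 6.98 in ES (log2 FC -5.91, SE 0.14, adjusted p = 9.23e-10), a 60.3-fold difference. Here it was DE that stayed at the ES level. Bmp4, the ligand that was also added to the mesoderm medium, read 7.25 and 7.35 in DE, against 12.52 and 12.44 in MES and 11.70 in ES (log2 FC -5.18, SE 0.32, adjusted p = 3.74e-07). Phlda2, an imprinted regulator of placental growth, read 8.69 and 8.73 in DE, against 13.91 and 13.92 in MES (log2 FC -5.20, SE 0.17, adjusted p = 3.93e-09). Pmp22, a membrane protein best known from myelin, was 31.6-fold lower and Anpep, aminopeptidase N, 29.4-fold lower. Kdr, the Vegf receptor of vessel and blood progenitors, read 6.60 and 6.46 in DE, against 10.88 and 10.95 in MES (log2 FC -4.39, SE 0.23, adjusted p = 1.10e-07). Rspo3 (-4.43), a secreted enhancer of Wnt signals, Hand1 (-4.24), a factor of lateral and cardiac mesoderm, Cdh11 (-4.24), a mesenchymal cadherin, Wnt5a (-3.92), a noncanonical Wnt ligand, and Aplnr (-3.70), the receptor of apelin and Elabela, were in the same group. Alox15, Irgm1, Alpl, Meis2, Klhl6, Fabp7, Cyria, Stard8, Ifitm1, Mmp2, Igfbp4, Lef1, Morc4 and Fndc3c1 completed the 25 lowest, at log2 FC between -4.36 and -3.68.

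Set beside the ES arrays, the ends of the ranking looked different. Of the 25 genes highest in DE, 24 were also called higher in DE than in ES (4.96% of all genes were), 0 were higher in MES than in ES and 6 were lower in MES than in ES (4.50% of all genes), among them Gpc4, Cpn1 and Gramd1b. Of the 25 lowest, 19 were higher in MES than in ES (2.59% of all genes) and 16 were lower in DE than in ES (6.45%). Phlda2, Pmp22 and Anpep were among the genes that did both: Pmp22 read 7.95 in DE and 12.93 in MES, with ES in between at 9.85. In all, 11.4% of genes were called between DE and ES and 7.09% between MES and ES. The comparisons with ES share the same ES arrays, and the ES cells were grown on other feeders and not sorted. They also reuse the DE and MES arrays that ranked these genes. The shares among the 25 are thus in part fixed by the ranking and give it no separate support.

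**Figure D2:**
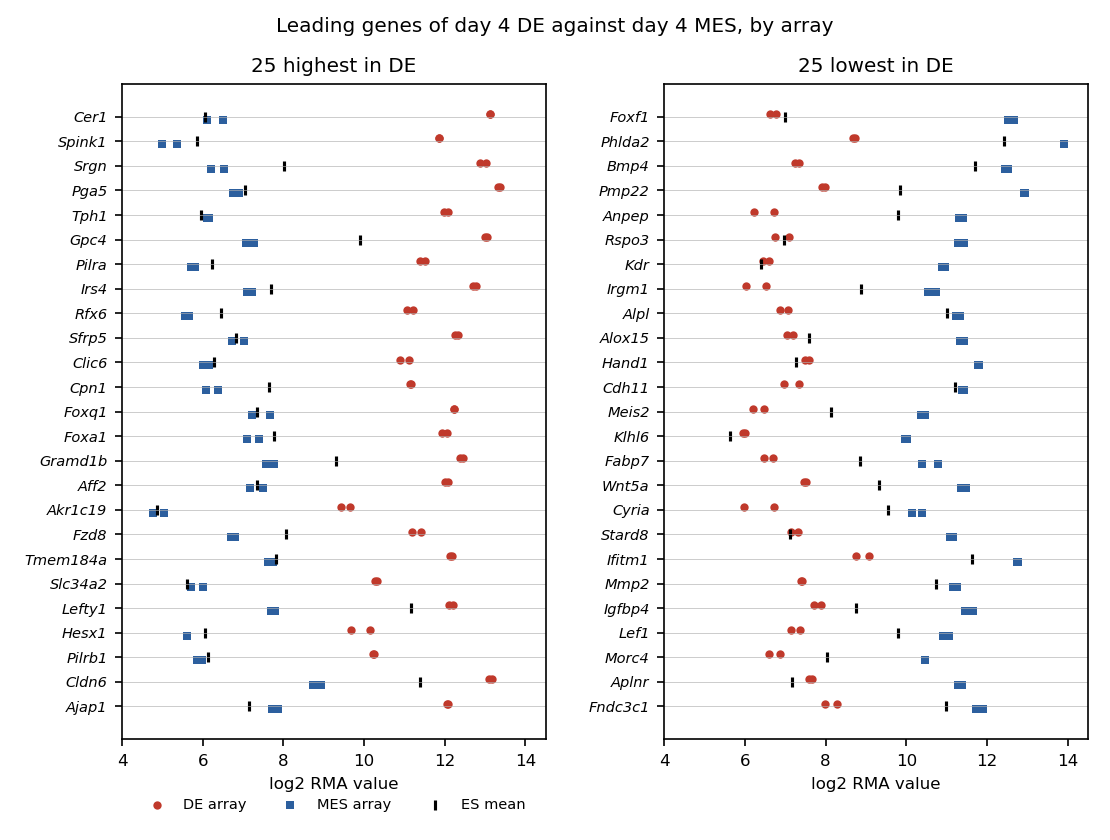
The 25 genes highest in DE (left panel) and the 25 lowest (right panel), with the log2 RMA value of each DE array (red circles) and each MES array (blue squares) on the x axis and the ES mean as a black bar. The arrays of a group lie close together and those of DE and MES lie far apart; the ES mean of Foxf1 lies near DE and that of Cer1 near MES.

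Transcription factors of the definitive endoderm differed in the direction of the labels, with 11 of 16 measured list members higher in DE, 2 lower and a median log2 FC of 2.20. Foxa1 read 11.92 and 12.06 in DE, against 7.38 and 7.10 in MES (log2 FC 4.75, SE 0.22, adjusted p = 5.07e-08). Sox17, required for gut endoderm, read 10.78 and 10.97 in DE, against 6.96 and 6.79 in MES (log2 FC 4.00, SE 0.19, adjusted p = 5.71e-08). Hnf4a, a nuclear receptor of liver and gut, read 11.29 and 11.32 in DE, against 7.63 and 7.26 in MES (log2 FC 3.86, SE 0.29, adjusted p = 1.76e-06). Foxa3 (4.12), Otx2 (3.43), Gsc (3.15) and Hhex (3.13) followed, the last 3 being homeobox factors of the anterior streak and anterior endoderm. Prdm1 (2.41), Irx3 (1.99), Lhx1 (1.92) and Gata6 (1.13) were higher by less. Gata6 and Lhx1 were high in both lineages: Gata6 read 12.37 and 12.32 in DE, against 11.20 and 11.23 in MES and 7.97 in ES, and Lhx1 read 12.60 and 12.70 in DE, against 10.75 and 10.72 in MES and 6.61 in ES. The members lower in DE were Mixl1, a homeobox factor of the streak (log2 FC -1.23; -0.89 and not called on reference gene centring, in which every array is set to an equal mean of 11 common reference genes), and Sox7, a relative of Sox17 found in vessels and extraembryonic endoderm (log2 FC -1.56). Gata4 (0.82), Eomes (-0.01) and Sox18 (-0.15) were not called.

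Markers of visceral endoderm, the extraembryonic layer that shares many genes with definitive endoderm, moved in the same direction, with 5 of 21 higher in DE (10 on reference gene centring), 0 lower and a median of 0.49. Their mean per array was 7.94 to 7.95 in DE, against 6.73 to 6.86 in MES. The called members were Spink1, Apoa1 (log2 FC 4.26) and Apob (2.63), which build lipoproteins, Rbp4 (2.35), the plasma carrier of retinol, and Mttp (1.02; 0.93 without MES replicate 1, where it was not called). The defining members Afp, at 6.4 in DE and in MES, Alb, at 5.1 in DE and 5.2 in MES, and Ttr, at 6.4 in DE and 5.5 in MES, lay in the lower part of the array scale and were not called. Parietal endoderm markers had 0 of 9 higher and 2 lower (Sox7 and Pdgfra). How far extraembryonic cells took part in the endoderm values was not tested.

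Mesoderm factors were lower in DE in 13 of 25 cases and higher in 0, with a median of -1.07. After Foxf1 and Hand1 came Msx2 (log2 FC -3.17), a homeobox target of Bmp, and Mesp1, the factor of the earliest cardiac progenitors. Mesp1 read 6.74 and 6.78 in DE, against 9.66 and 9.74 in MES (log2 FC -2.94, SE 0.11, adjusted p = 1.21e-08). Tbx3 (-2.49), Snai1 (-2.48), Tbx6 (-1.93), Msx1 (-1.71), Gata2 (-1.60) and Msgn1 (-1.20) also fell in DE relative to MES. Foxc2 (-1.15), Tbx5 (-1.09) and Mesp2 (-1.06) passed narrowly. With the arrays centred on common reference genes, Msgn1, Foxc2, Tbx5 and Mesp2 were not called (-0.86 to -0.73), and Mesp2 was at -0.80 without MES replicate 1. Of the 12 members not called, Nkx2-5 read 8.5 in DE, 8.4 in MES and 8.4 in ES, Meox1 6.2, 6.3 and 6.2, and Tcf21 7.0, 6.7 and 6.8. Of 15 heart muscle genes 3 were lower in DE (Tbx5, Smarcd3 and Myl4, the last at -1.35), or 1 on reference gene centring, where Smarcd3 was at -0.94 and Tbx5 at -0.76, and 12 were not called, among them the myosins Myh6 (0.07) and Myh7 (0.21).

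Vessel and blood progenitor genes went both ways, with 4 of 22 higher in DE, 6 lower and a median of -0.39. Besides Kdr, Etv2, the ETS factor that starts the endothelial and blood programme, was lower in DE, at 7.74 and 7.68 against 11.10 and 11.19 in MES (log2 FC -3.44, SE 0.09, adjusted p = 1.93e-09). Fli1 (-2.11), Cdh5 (-1.87), which encodes VE-cadherin, Sox7 (-1.56) and Lmo2 (-1.45) were lower with it. Flt1, the decoy receptor of Vegfa, went the opposite way, at 12.38 and 12.38 in DE against 8.37 and 8.34 in MES and 8.29 in ES (log2 FC 4.03, SE 0.14, adjusted p = 6.52e-09). Thus the Vegf receptors Flt1 and Kdr were each high in 1 lineage and near the ES level in the other. Gata1 (2.20) and Runx1 (1.36), factors of blood, were higher in DE too, together with Hhex. The embryonic globins Hbb-bh1, at 5.2 in DE and 5.1 in MES, and Hba-x, at 7.4 in DE and 7.2 in MES, were not called.

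Secreted inhibitors of the anterior endoderm were higher in DE in 9 of 15 cases and lower in 0, with a median of 2.32. Dkk1, which blocks the Wnt coreceptors Lrp5 and Lrp6, read 13.26 and 13.31 in DE, against 9.10 and 9.17 in MES and 7.55 in ES (log2 FC 4.15, SE 0.17, adjusted p = 2.04e-08). Sfrp5, a soluble Frizzled-related protein, read 12.25 and 12.32 in DE, against 7.02 and 6.73 in MES (log2 FC 5.41, SE 0.23, adjusted p = 2.29e-08). Sfrp1, of the same family, read 13.55 and 13.59 in DE, against 10.42 and 10.67 in MES (log2 FC 3.02), and Frzb was higher by 2.32. Shisa2, which holds back Wnt and Fgf receptors, was higher by 1.59, whereas Sfrp2 fell by 1.71. The Wnt inhibitor list as a whole had 6 of 14 higher and 1 lower. Trh, the thyrotropin-releasing hormone, was higher in DE too (log2 FC 4.14) and also stood at 12.57 in ES.

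Wnt targets were more often lower than higher in DE, while most ligands and receptors were not called. Of 18 Wnt ligands 4 were lower in DE, 0 higher and 14 not called, with a median of 0.05: Wnt5a read 7.47 and 7.51 in DE, against 11.36 and 11.47 in MES (log2 FC -3.92, SE 0.11, adjusted p = 1.93e-09), Wnt3 was at -1.80, Wnt8a at -1.40 and Wnt2 at -1.05. The call of Wnt2 was lost without DE replicate 1 (-0.97), on median centring (-1.0) and on reference gene centring (-0.72). Wnt targets were lower in 7 of 14 cases and higher in 1, Rnf43 (1.06; 0.99 and not called without MES replicate 1), with a median of -1.01. Lef1, a Tcf/Lef factor that is itself induced by Wnt, read 7.13 and 7.37 in DE, against 11.06 and 10.91 in MES (log2 FC -3.73, SE 0.18, adjusted p = 5.04e-08). Ccnd1 (-3.33), Cdx2 (-2.69), Apcdd1 (-1.66) and Axin2, the feedback inhibitor that is read as a general Wnt target (-1.56), fell as well, with Sp8 (-1.39) and Nkd2 (-1.26; -0.92 and not called on reference gene centring). Apc, a scaffold of the complex that degrades β-catenin, was at -0.31 and was not called. Among 22 receptors and enhancers, 4 were higher and 3 lower, with a median of 0.07: Fzd8 read 11.42 and 11.19 in DE, against 6.80 and 6.70 in MES (log2 FC 4.55, SE 0.23, adjusted p = 8.81e-08), Fzd5 was higher by 4.17, Ror1 by 2.48 and Fzd6 by 1.71, while Fzd10 (-1.61), Fzd4 (-1.46) and Rspo3 were lower. The coreceptors Lrp5 (-0.18) and Lrp6 (-0.11) were not called.

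Of the Nodal and activin pathway 3 of 16 genes were higher in DE (5 on reference gene centring) and 2 lower, with a median of -0.09. Lefty1 and Lefty2, secreted feedback inhibitors of Nodal, and Nodal itself were higher. Lefty1 read 12.20 and 12.11 in DE, against 7.70 and 7.80 in MES and 11.16 in ES (log2 FC 4.41, SE 0.27, adjusted p = 3.26e-07), so it was MES that lay below ES. Nodal read 10.86 and 10.95 in DE, against 8.86 and 8.91 in MES (log2 FC 2.02, SE 0.10, adjusted p = 7.92e-08), and Lefty2 was higher by 3.85. Tdgf1, the Nodal coreceptor Cripto (-1.77), and Fst, which traps activin (-3.25), were lower. The receptors and Smads of the pathway were not called, for example Acvr1b (0.23), Smad2 (0.42) and Smad3 (-0.43). Bmp ligands, receptors and antagonists counted 2 of 18 higher and 5 lower. Besides Bmp4, Bmp7 (-2.27) and Bmp5 (-1.64) were lower, although the call of Bmp5 was lost without DE replicate 1 (-1.51) and without MES replicate 1 (-1.49). The antagonists Chrd (1.17) and Twsg1 (1.18) were higher and Bmper (-1.03) and the shared member Fst lower, with Bmper not called without DE replicate 1 (-0.94) or on median or reference gene centring (-0.98 and -0.69). Bmp targets were lower in 6 of 15 cases and higher in 0, with a median of -0.75: Hand1, Msx2, Msx1, Gata2, Id2 (-1.34) and Smad6 (-1.23; -0.90 and not called on reference gene centring). Id1 (-0.74) and Id3 (0.66), the usual readouts of Bmp signalling, were not called. Bmp4 protein was in the mesoderm medium alone.

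Of 19 Fgf pathway genes 1 was higher and 6 lower in DE. The higher gene was Fgf5, a ligand of the postimplantation epiblast, at 12.21 and 12.35 in DE against 8.77 and 8.89 in MES and 10.10 in ES (log2 FC 3.45, SE 0.14, adjusted p = 2.05e-08). Fgf15 (-2.90), Etv5 (-2.31), an ETS factor induced by Fgf, Fgfr1 (-1.52), Fgf3 (-1.38), Spred1 (-1.18) and Spry2 (-1.03) were lower. Spry2 was not called without MES replicate 1 (-0.92) or on median or reference gene centring (-0.98 and -0.70), and Spred1 not on reference gene centring (-0.84). In the Notch pathway 1 of 17 was higher, the ligand Jag1 (1.40), and 3 were lower, Dll3 (-1.84), Hey2 (-1.60) and Notch1 (-1.24; -0.91 and not called on reference gene centring). The 1 higher of 17 is close to the 4.26% of all genes called higher. Retinoic acid genes split evenly, 3 of 16 higher (5 on reference gene centring) and 3 lower. The receptors Rarb (2.36) and Rxra (1.46) and the carrier Rbp4 were higher, and the receptor Rarg (-1.54) and the binding proteins Crabp1 (-2.99) and Crabp2 (-2.35) were lower. Guidance genes had 4 of 28 higher (7 on reference gene centring) and 7 lower. Sema6d, a transmembrane semaphorin, read 11.74 and 11.93 in DE, against 7.65 and 7.78 in MES (log2 FC 4.12, SE 0.12, adjusted p = 2.41e-09), whereas Nrp2, a semaphorin and Vegf coreceptor (-3.32), and the ephrin Efnb2 (-2.84) were lower.

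**Figure D3:**
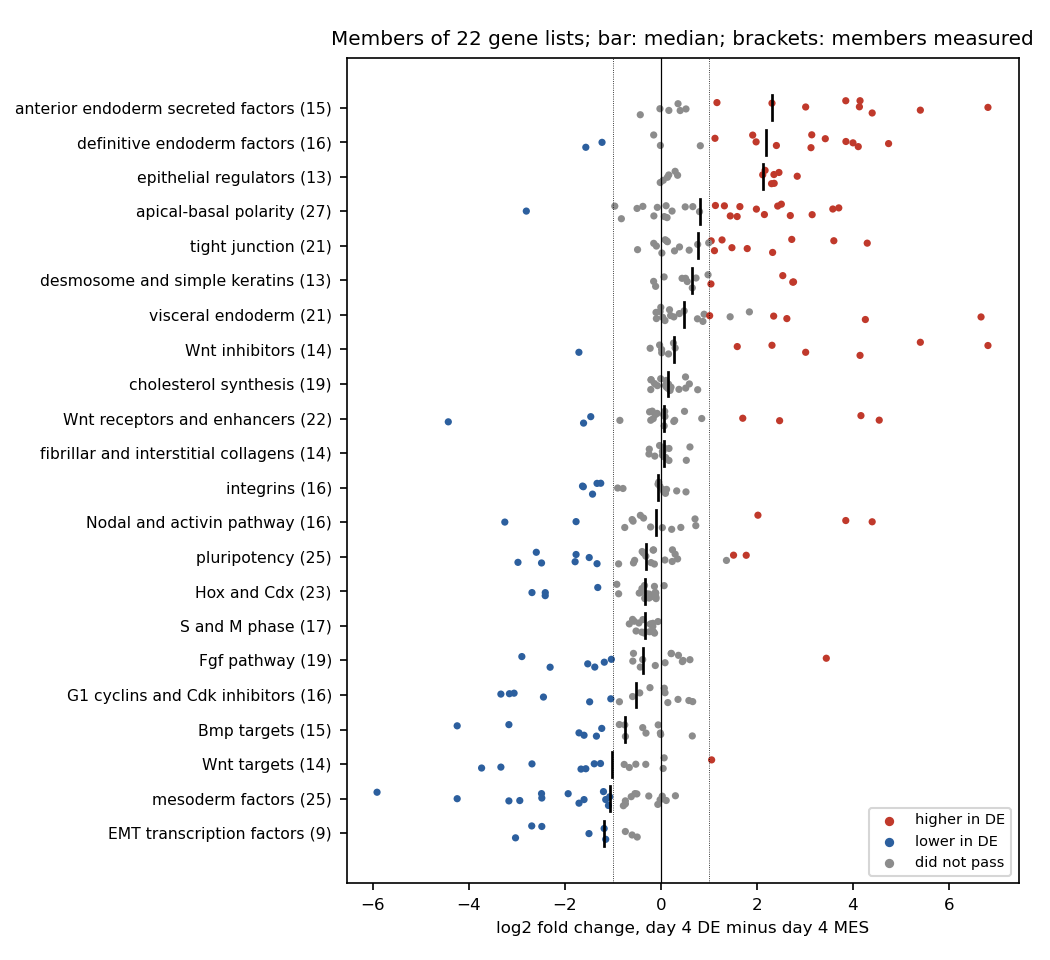
Each point is a member of 1 of 22 gene lists, placed by its log2 FC, DE minus MES, on the x axis (red higher in DE, blue lower, grey not called); the black bar is the list's median and the number in brackets counts the members measured. The lists are ordered by median, with anterior secreted factors at 2.32 at the top and EMT transcription factors at -1.18 at the bottom.

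EMT transcription factors fell in DE relative to MES in 6 of 9 cases and were higher in 0, with a median of -1.18. Snai1 read 8.33 and 8.14 in DE, against 10.77 and 10.66 in MES and 8.54 in ES (log2 FC -2.48, SE 0.15, adjusted p = 4.10e-07). Zeb2 read 6.50 and 6.38 in DE, against 9.42 and 9.52 in MES and 8.07 in ES (log2 FC -3.03, SE 0.21, adjusted p = 9.08e-07). Zeb1 read 7.16 and 7.07 in DE, against 9.63 and 9.98 in MES and 9.55 in ES (log2 FC -2.69, SE 0.24, adjusted p = 7.39e-06). DE thus read near the ES arrays for Snai1 and below them for both Zeb genes. The ES cells were not sorted, and fibroblast feeder markers had an array mean of 9.59 to 9.99 in ES, against 7.12 to 7.21 in DE. The part of feeders in the ES values of these genes was not tested. Twist1 (-1.50), Snai2 (-1.18) and Foxc2 (-1.15) were the other called members. Snai2 was not called without MES replicate 2 (-1.03) or on reference gene centring (-0.85). Tcf4 (-0.49), Twist2 (-0.60) and Prrx1 (-0.74) were not called, and Twist2 and Prrx1, which fibroblasts also express, stood at 10.3 and 10.9 in ES.

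Regulators that maintain epithelia were higher in DE in 7 of 13 cases and lower in 0, with a median of 2.12. Ovol2, a zinc finger repressor of Zeb1, read 9.66 and 9.46 in DE, against 7.46 and 7.32 in MES (log2 FC 2.17, SE 0.14, adjusted p = 6.74e-07). Grhl2, a grainyhead factor that activates junction genes, read 9.21 and 9.15 in DE, against 7.08 and 7.03 in MES and 9.25 in ES (log2 FC 2.12, SE 0.17, adjusted p = 3.69e-06). Ehf (2.84) and Elf3 (2.31), epithelial ETS factors, Grhl3 (2.46) and the splicing regulators Esrp1 (2.36) and Esrp2 (2.36) were higher with them. Pofut2 (0.30), Klf5 (0.35), Grhl1 (-0.01) and Ovol1 (0.17) were not called.

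Of 11 adherens junction genes 2 were higher in DE and 4 lower. Cdh1, E-cadherin, read 12.97 and 13.12 in DE, against 10.36 and 10.46 in MES and 12.40 in ES (log2 FC 2.63, SE 0.09, adjusted p = 5.75e-09). Cdh2, N-cadherin, which often replaces it in EMT, read 11.39 and 11.39 in DE, against 11.75 and 11.87 in MES (log2 FC -0.42, adjusted p = 0.102; 95% interval -0.77 to -0.06) and 10.38 in ES. The cadherin lower in DE by the largest amount was Cdh11, and Cdh4 (-2.10), Cdh5 (-1.87) and Cdh3 (-1.33; -0.99 and not called on reference gene centring) were lower with it. Catenins were at 0.72 (Ctnnb1), 0.29 (Ctnna1) and 0.11 (Ctnnd1), and Jup, at 1.00, was called, though not without DE replicate 1 (0.93) or MES replicate 1 (0.96).

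Tight junction genes were higher in DE in 9 of 21 cases and lower in 0 (median 0.77). Cldn6, a claudin of early embryonic epithelia, read 13.09 and 13.18 in DE, against 8.94 and 8.73 in MES and 11.38 in ES (log2 FC 4.30, SE 0.14, adjusted p = 4.14e-09). Ocln, occludin, read 9.89 and 10.13 in DE, against 6.45 and 6.36 in MES (log2 FC 3.61, SE 0.12, adjusted p = 3.93e-09). Cldn7 (2.73), Marveld2 (2.33), F11r (1.80), Tjp3 (1.48), Cldn9 (1.28), Cxadr (1.12) and Marveld3 (1.05; 0.96 and not called without MES replicate 2) also rose, while 10 other claudins and the scaffold Tjp1 (0.29) were not called. Of 27 genes in a list of polarity, apical trafficking and epithelial surface protease genes, 13 were higher and 1 lower (median 0.81). The 13 include the surface proteases St14 (2.51) and Prss8 (1.59) and the protease inhibitors Spint1 (1.99) and Spint2 (1.65), which are not polarity genes. Rab25, a GTPase of apical recycling endosomes, read 10.95 and 11.18 in DE, against 7.57 and 7.39 in MES (log2 FC 3.58, SE 0.18, adjusted p = 6.75e-08). Crb3, the crumbs protein of the apical membrane, read 10.26 and 10.08 in DE, against 8.10 and 7.36 in MES (log2 FC 2.44, SE 0.20, adjusted p = 3.40e-06). Its relative Crb2, which is needed for cells to leave the streak, was the gene that fell, at 7.80 and 7.57 in DE against 10.60 and 10.38 in MES (log2 FC -2.80). The core Par, Scribble and Dlg genes were not called, whereas the polarity genes Mpp5 (1.45), Llgl2 (1.325) and Ezr (1.14) were called higher. Desmosome and simple keratin genes were higher in 4 of 13 cases: Krt7 (2.77), Dsc2 (2.75), Perp (2.54) and Krt18 (1.04; 0.99 and not called without DE replicate 1).

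Snai and Zeb proteins bind the E-box CAGGTG, and promoters of the genes above were read for it. The promoters are RefSeq windows of 300 bases (GRCm38.p6), 250 before and 50 after a start, on hand for 14680 of the 18716 genes in 18195 windows. CAGGTG, on either strand (CACCTG), was in 31.1% of the windows of genes higher in DE (276 of 888), in 14.9% of those of genes lower in DE (97 of 650) and in 19.9% of all windows (3614 of 18195). Of 35 epithelial list genes higher in DE, 19 had a window, and the motif was in 19 of their 24 windows, which belong to 15 genes. Counted by gene, 22.6% of all genes with a window had it. The lists were written with earlier results of these data known, so the share among their genes is not independent of that choice. The 16 genes not read were Cdh1, Cldn9, Cxadr, Dsc2, Ehf, Esrp1, Esrp2, Grhl2, Llgl2, Mal2, Marveld3, Mpp5, Myo5b, Perp, Prss8 and St14. Another E-box, CAGCTG, was in 19.4%, 14.9% and 16.5% of these sets and in 0 of the 24. Median GC content was 60.0% for genes higher in DE, 61.7% for genes lower in DE and 58.0% for all windows. For the same 3 sets, the shares were as follows for the forkhead motif TGTTTAC (2.25%, 3.38% and 2.82%), its variant TGTTTGC (5.52%, 4.31% and 4.26%), the Gata motif AGATAA (7.55%, 5.85% and 8.39%) and the Tcf and Lef motif CTTTGAT (2.48%, 2.31% and 2.97%). These shares are descriptions without a test, and a match in a promoter is not evidence of binding.

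Promoters of 3 junction and polarity genes higher in DE and of the leading gene, Cer1, are printed to show these matches, with CAGGTG in capitals in all 4 and TGTTTGC also in Cer1, on either strand, 5′ to 3′ in the gene's direction. Crb3 (chr17:57061951-57062250, plus strand, 1 of 2 overlapping windows) has 4 matches to CAGGTG, Cldn6 (chr17:23679115-23679414, plus strand) 2, Rab25 (chr3:88548230-88548529, minus strand) 2 and Cer1 (chr4:82885102-82885401, minus strand) 2, beside 2 to TGTTTGC.
Crb3: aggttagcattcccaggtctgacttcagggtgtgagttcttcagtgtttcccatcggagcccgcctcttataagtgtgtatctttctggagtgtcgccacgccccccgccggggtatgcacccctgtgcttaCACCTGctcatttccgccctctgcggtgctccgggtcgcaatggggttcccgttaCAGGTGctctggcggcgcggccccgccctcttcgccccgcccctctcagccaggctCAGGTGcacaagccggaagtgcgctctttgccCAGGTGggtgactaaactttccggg
Cldn6: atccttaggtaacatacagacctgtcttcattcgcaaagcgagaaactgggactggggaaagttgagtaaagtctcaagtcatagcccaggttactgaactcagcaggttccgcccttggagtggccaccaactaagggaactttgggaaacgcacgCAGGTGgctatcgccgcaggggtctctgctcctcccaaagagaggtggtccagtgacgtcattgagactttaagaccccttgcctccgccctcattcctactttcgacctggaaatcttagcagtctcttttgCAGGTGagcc
Rab25: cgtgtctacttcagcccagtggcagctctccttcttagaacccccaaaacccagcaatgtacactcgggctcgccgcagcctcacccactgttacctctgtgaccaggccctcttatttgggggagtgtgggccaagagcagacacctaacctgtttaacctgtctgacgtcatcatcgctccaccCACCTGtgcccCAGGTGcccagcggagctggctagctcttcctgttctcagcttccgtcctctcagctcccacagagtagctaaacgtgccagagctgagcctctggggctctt
Cer1: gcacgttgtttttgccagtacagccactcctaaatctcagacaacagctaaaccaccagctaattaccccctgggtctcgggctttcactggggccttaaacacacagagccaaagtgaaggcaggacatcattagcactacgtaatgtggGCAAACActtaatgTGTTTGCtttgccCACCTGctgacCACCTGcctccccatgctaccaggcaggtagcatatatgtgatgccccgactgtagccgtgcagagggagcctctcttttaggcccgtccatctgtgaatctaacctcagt
The matches of Rab25 begin 64 and 53 bases before the start, and those of Crb3 at 118, 63 and 7 bases before it and 25 after it. In Cldn6 they lie 93 bases before and 40 after the start, and in Cer1 at 72 and 61 bases before it, with TGTTTGC at 99 and 85 bases before it.

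**Figure D4:**
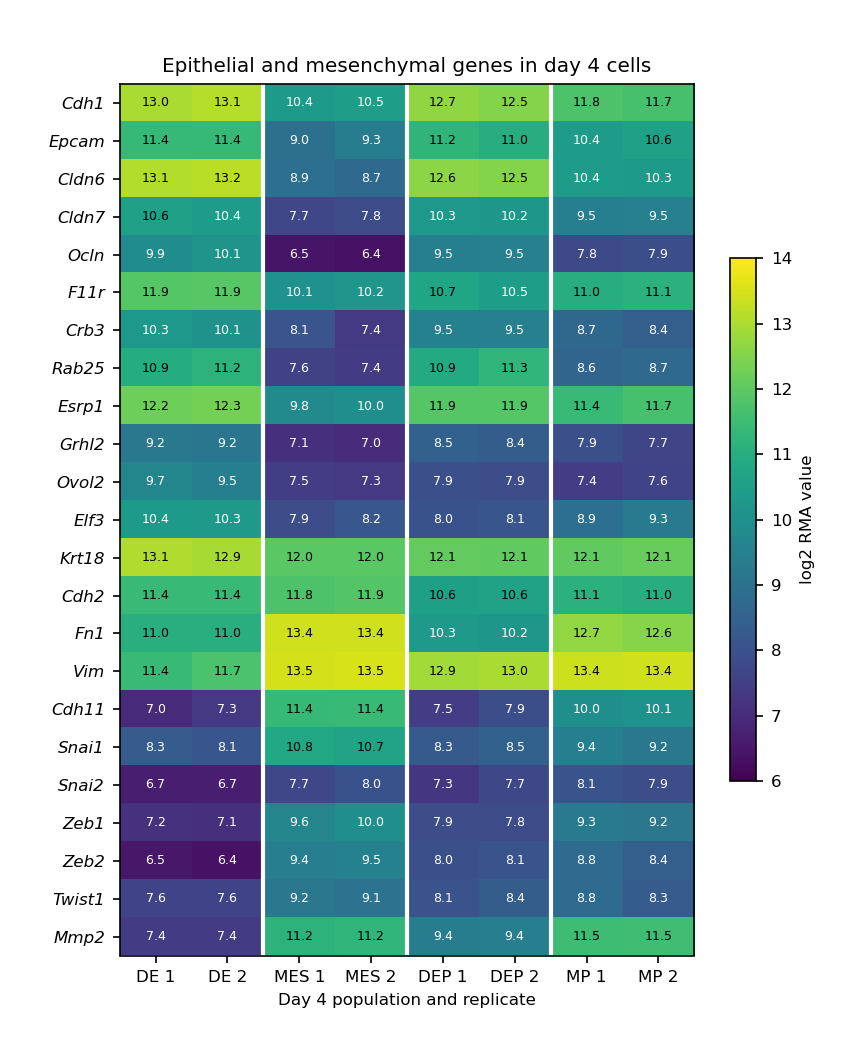
Log2 RMA values of 23 epithelial and mesenchymal genes (rows) in each of the 8 day 4 arrays (columns, 2 each of DE, MES, DEP and MP), with the value printed in each cell and coloured from 6 to 14. Cdh1, Cldn6 and Ocln are highest in DE and lowest in MES with DEP and MP between, Rab25 is as high in DEP (mean 11.09) as in DE (11.06), and Zeb2 is lowest in DE.

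Genes of mesenchyme and matrix differed less uniformly. Fn1, fibronectin, read 11.04 and 11.01 in DE, against 13.43 and 13.41 in MES (log2 FC -2.40, SE 0.20, adjusted p = 3.92e-06), and Vim, vimentin, read 11.41 and 11.72 in DE, against 13.48 and 13.53 in MES (log2 FC -1.94, SE 0.25, adjusted p = 1.72e-04). Mmp2, a gelatinase that cuts basement membrane collagen, read 7.38 and 7.41 in DE, against 11.17 and 11.25 in MES (log2 FC -3.81, SE 0.21, adjusted p = 1.59e-07). Of 15 mesenchymal structure genes 4 were lower, Fn1, Vim, Vcan (-1.55, not called when any 1 of the 4 arrays was left out) and Tnc (-1.26; -0.93 and not called on reference gene centring), and Acta2, smooth muscle actin, was higher (1.39). Basement membrane genes split 3 to 3 of 18: the laminin chains Lamc1 (1.81), Lama5 (1.50) and Lamb3 (1.48) were higher in DE, and Hspg2 (-1.54), Lama4 (-1.47) and Nid1 (-1.03; not called at -0.98 on median centring or at -0.69 on reference gene centring) were lower. Of 14 fibrillar and interstitial collagens 0 were called, the largest difference being 0.61 (Col2a1); 2 had an unadjusted limma p under 0.05, Col2a1 and Col14a1 (0.53), both also below 0.05 after adjustment. Of 16 integrins 5 were lower in DE (3 on reference gene centring), among them Itga9 (-1.63) and Itga6 (-1.61), and 0 were higher, and of 18 metalloproteases and inhibitors 3 were lower and Adamts9 (1.20) was higher. Fibroblast feeder markers had an array mean of 7.12 to 7.21 in DE, 7.58 to 7.65 in MES and 9.59 to 9.99 in ES. Of these 19 markers 3 were lower in DE (Pdgfrb, Fbln1 and Serpinf1, the last at -0.86 and not called on reference gene centring), and Postn, at 5.2 in DE and 5.3 in MES, and Dcn, at 6.3 in DE and 6.0 in MES, were near the bottom of the scale; the part of feeders in the matrix values was not tested.

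Hox and Cdx genes, which set position along the body axis, were lower in DE in 4 of 23 cases and higher in 0, with a median of -0.33. Cdx2 read 6.77 and 6.90 in DE, against 9.44 and 9.61 in MES and 6.66 in ES (log2 FC -2.69, SE 0.09, adjusted p = 6.52e-09). Hoxb1 (-2.41), the earliest Hox gene of its cluster, Hoxb2 (-2.41) and Hoxc8 (-1.31; -0.98 and not called on reference gene centring) were lower too. Their cofactor Meis2 read 6.20 and 6.48 in DE, against 10.47 and 10.37 in MES (log2 FC -4.08, SE 0.37, adjusted p = 7.90e-06) and Meis1 fell by 1.42, whereas Irx3 (1.99) and Irx5 (1.64) were higher. Markers of axial mesoderm gave no common direction, with 2 of 12 higher and 3 lower. Noto, at 6.7 in DE, MES and ES, and Shh, at 7.5 in DE, 7.4 in MES and 7.3 in ES, did not rise above the ES level.

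Pluripotency genes were lower in DE more often than higher. Of 25 pluripotency genes 7 were lower in DE and 2 higher, with a median of -0.31, and the list's array mean was 8.21 to 8.25 in DE, 8.71 to 8.72 in MES and 10.8 to 11.2 in ES. Pou5f1 (Oct4) read 7.79 and 8.71 in DE, against 11.24 and 11.22 in MES and 12.53 in ES (log2 FC -2.98, SE 0.25, adjusted p = 4.38e-06). Sox2 read 7.01 and 7.37 in DE, against 8.88 and 9.07 in MES and 12.12 in ES (log2 FC -1.79, SE 0.15, adjusted p = 4.28e-06). Nanog read 9.39 and 9.78 in DE, against a mean of 10.91 in MES and 12.08 in ES (log2 FC -1.33, SE 0.12, adjusted p = 9.58e-06), or -0.99 and not called on reference gene centring. Tfcp2l1 (1.78), a naive state factor, and Dnmt3b (1.52), a de novo DNA methyltransferase, were higher in DE. Naive genes such as Zfp42 (5.9 in DE, 6.2 in MES and 10.3 in ES) and Esrrb (6.7, 6.9 and 10.1) were far below ES in both lineages. Neural and epiblast markers had 1 of 15 higher, Otx2, and 4 lower, led by Fabp7 (-4.01), a fatty acid binding protein of radial glia; Sox1 (0.04) and Pax6 (-0.08) were not called. Of 10 trophoblast markers 3 were higher (Krt7, Ascl2 and Gata3) and 2 lower (Cdx2 and Plac1), and Elf5 read 6.5 in DE and 6.4 in MES.

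Regulators of the G1 phase were lower in DE in part, and S and M phase genes were not called. Of 16 G1 cyclins and Cdk inhibitors 6 were lower in DE and 0 higher. Ccnd1 read 8.33 and 8.55 in DE, against 11.86 and 11.68 in MES and 11.88 in ES (log2 FC -3.33, SE 0.15, adjusted p = 3.25e-08). Cdk6, its kinase partner, read 7.52 and 7.41 in DE, against 10.64 and 10.59 in MES (log2 FC -3.15), and Ccnd2 (-3.06), Myc (-2.45), Cdkn1c (-1.48) and Ccnd3 (-1.04) were lower as well. The call of Ccnd3 was lost without DE replicate 2 (-1.0) and on median or reference gene centring (-0.99 and -0.71). Of 17 S and M phase genes 0 were called by limma, with a median of -0.34, while 10 had values below 0 at an unadjusted p under 0.05 and 0 above it. For 8 of the 10 the adjusted p was below 0.05 too, and they missed the call on the size of the difference. Mki67 read 11.7 in DE and 12.0 in MES, and Pcna 12.9 and 13.1. Common reference genes had a median of -0.28 over 11, with 0 called by limma and 7 with values below 0 at an unadjusted p under 0.05, of which 5 had an adjusted p below 0.05. These 11 genes set the reference gene centring.

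Transport and metabolic genes showed single large differences. Of 23 amino acid and nutrient transporters 7 were higher and 2 lower in DE. Slc38a5, a glutamine carrier, read 11.18 and 11.21 in DE, against 7.60 and 7.32 in MES (log2 FC 3.74, SE 0.15, adjusted p = 2.05e-08), and Slc7a8, a neutral amino acid exchanger, read 12.27 and 12.35 in DE, against 8.81 and 8.76 in MES (log2 FC 3.52, SE 0.13, adjusted p = 7.54e-09). Slc40a1, the iron exporter ferroportin (3.54), and Slc39a8, a zinc and manganese importer (2.64), were higher too. Among 20 glycolysis genes the platelet form of phosphofructokinase, Pfkp, fell by 3.06, at 6.36 and 6.52 in DE against 9.52 and 9.48 in MES, while Slc2a3 was higher by 1.20 and 17 were not called. Of 19 cholesterol synthesis genes 0 were called by limma and their median was 0.15, with 5 above 0 at an unadjusted p under 0.05, all 5 also below 0.05 after adjustment. In the insulin and Igf list the adaptors diverged, with Irs4 higher and Irs1 (-1.20; -0.86 and not called on reference gene centring) and Irs2 (-1.48) lower. The receptor Igf1r (-2.64) and the binding proteins Igfbp4 (-3.76) and Igfbp3 (-1.28; -0.94 and not called on reference gene centring) were lower, and Igfbp2 (2.44) was higher. Interferon inducible genes were lower in 5 of 19 cases and higher in 0, led by Ifitm1 (-3.83), Oasl2 (-2.67) and Usp18 (-2.11), although Mx1 (5.1 in both) and Ifit1 (5.9 in DE and 6.0 in MES) stayed near the bottom of the scale. Of 10 germ cell genes 2 were higher, Kit (2.69) and Prdm1, and 2 lower, Ifitm1 and Alpl. Of 16 stress genes Jun was higher (1.12; adjusted p = 0.0546 without DE replicate 1 and adjusted p = 0.0544 without MES replicate 1, in the same limma fit) and Atf3 lower (-1.59).

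Several regulators well above their ES level differed between DE and MES by less than the threshold, and are named here after looking at their values. Eomes, the T-box factor upstream of both lineages, read 12.05 and 12.05 in DE, against 12.05 and 12.06 in MES and 8.81 in ES (log2 FC -0.01, 95% interval -0.33 to 0.31). Bmp2 read 10.51 and 10.70 in DE, against 10.61 and 10.63 in MES and 5.72 in ES (log2 FC -0.02, 95% interval -0.42 to 0.38). Fgf8 (0.22, 95% interval -0.08 to 0.51) and Fgf10 (0.09, 95% interval -0.28 to 0.46) had intervals that include 0 too, and each was called higher than ES in both lineages. Cyp26a1, which degrades retinoic acid, read 11.56 and 11.60 in DE, against 11.16 and 11.29 in MES and 6.57 in ES (log2 FC 0.36, 95% interval 0.14 to 0.57), an interval above 0. For these 5 genes the interval lies within the threshold of 1.

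The progenitors sorted at equal CD24 gave a second reading of the lineage difference on arrays that the first did not use. DEP and MP differed in 665 genes (3.55%), of which 331 were higher in DEP (1.77%) and 334 lower (1.78%). Of the 797 genes higher in DE than in MES, 152 were also higher in DEP than in MP, which is 19.1% of the 797 and 45.9% of the 331. Of the 675 lower, 176 were also lower in DEP, or 26.1% and 52.7%; calls of opposite direction numbered 10 and 18. By sign alone, 83.2% of the genes higher in DE than in MES had a positive value between DEP and MP, against 50.2% of all genes, and 74.8% of the genes lower had a negative one, against 49.8%. Of the 38 genes above a log2 FC of 4, 38 had the same sign in the progenitors and 28 were called, and of the 15 below -4, 15 had the same sign and 14 were called. Cer1 read 11.45 and 11.55 in DEP, against 6.27 and 6.66 in MP (log2 FC 5.04), and Foxf1 was lower in DEP than in MP by 5.02 on the log2 scale. Wnt5a (-5.25), Bmp4 (-4.08), Cdx2 (-4.08), Otx2 (3.17), Fgf5 (3.12) and Dkk1 (3.04) differed in the progenitors by at least 3 log2 units. The difference in medium is common to both comparisons.

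Gene groups held up to different degrees at equal CD24. Mesoderm factors were lower in DEP than in MP in 11 of 25 cases, Bmp targets in 9 of 15 and Hox and Cdx genes in 10 of 23, the last against 4 between DE and MES. Definitive endoderm factors were higher in 4 of 16 cases (Foxa1, Otx2, Gsc and Lhx1) and lower in 1 (Prdm1). Sox17 (1.00), at about the size threshold, Foxa3 (0.86), Hnf4a (0.75) and Hhex (0.37) were positive but not called. Here and below, a missed call does not mean that the progenitors did not differ. Of the epithelial regulators 0 were higher in DEP and 2, Elf3 and Grhl3, were lower, and of 9 EMT factors 1 was lower, Zeb1 (-1.38). Cdh1 read 12.7 and 12.5 in DEP, against 11.8 and 11.7 in MP (log2 FC 0.87, not called), whereas Cldn6 (2.19), Rab25 (2.41) and Mal2 (3.46), a transcytosis protein, were higher. Fn1 differed by -2.40 between DE and MES and by -2.35 between DEP and MP.

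DE minus MES was set against DEP minus MP in an interaction test. DE is CD24 high and MES CD24 negative, while DEP and MP are both CD24 low. A gene that follows CD24 level alike in both lineages thus also gives a value. This cannot be told apart from a change of the lineage difference itself. The interaction was positive, with DE minus MES the larger, in 747 genes (3.99%) and negative in 636 (3.4%). Of the 797 genes higher in DE than in MES, 522 had a called interaction, and of the 675 lower 366 did, against 7.39% of all genes. The interaction contains the difference that chose these genes, so a raised share is in part set by that choice. Sox17 (3.01), Hnf4a (3.11), Foxa3 (3.26), Hhex (2.76), Sfrp5 (3.74), Irs4 (3.41) and Apoa1 (3.38) had large positive values, as did the epithelial regulators Grhl3 (3.49), Elf3 (3.34) and Ehf (2.26). Otx2 (0.25), Lhx1 (0.29), Fgf5 (0.33), Mal2 (0.25) and Igfbp2 (-0.04) on the endoderm side, and Fn1 (-0.04), Ccnd2 (-0.21), Cdh5 (0.04), Msx1 (-0.01), Msx2 (0.19) and Nrp2 (0.06) on the mesoderm side, had values near 0 and were not called.

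For some genes the direction itself turned over, and for others the difference was not called in the progenitors. Prdm1, a transcriptional repressor of germ cell and endoderm precursors, read 10.51 and 10.63 in DE, against 7.97 and 8.35 in MES, but 8.18 in DEP and 10.33 in MP (interaction 4.56, SE 0.22, adjusted p = 2.44e-06). Kit, the stem cell factor receptor used to sort endoderm, was higher in DE than in MES by 2.69 and lower in DEP than in MP, by 1.20 on the log2 scale. Cdk6 fell by 3.15 in DE relative to MES and was higher in DEP than in MP by 1.35. Efnb2 (-2.84 in DE and 0.57 in DEP), Pou5f1 (-2.98 and 0.58) and Ccnd1 (-3.33 and -0.01) were lower in DE than in MES and were not called between DEP and MP. Tdgf1 was lower in DE (-1.77) and higher in DEP (1.46).

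**Figure D5:**
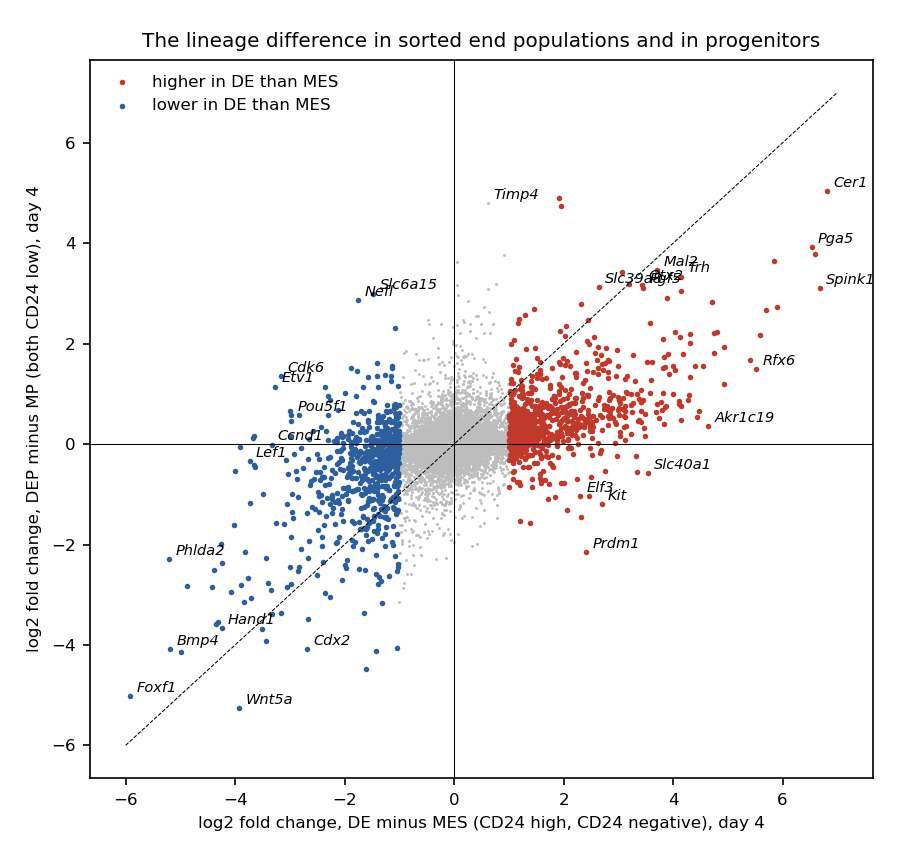
Each point is 1 of 18716 genes, with its log2 FC of DE minus MES on the x axis and of DEP minus MP on the y axis, all at day 4; red and blue mark genes higher and lower in DE than in MES, and the dashed line marks equal differences. Foxf1 and Bmp4 lie near the line, Rfx6 (1.49) and Akr1c19 (0.35) lie low on the y axis for their x values of 5.52 and 4.64, and Prdm1, Kit, Nefl and Cdk6 lie in the quadrants of opposite sign.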

How the data were processed

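The authors deposited 1 table of log2 expression values for 16 Affymetrix Mouse Gene ST 1.0 arrays of RNA extracted by a miRNeasy kit, made by robust multi-array averaging (RMA) with oligo 1.48.0 per the submitters' processing notes; the scale is log2 and differences between arrays were used as deposited. Of 35556 probe sets, the platform annotation gives 21789 a single symbol, 1621 several and 12146 none. The 32000 probe sets of highest mean were kept, and a gene with several (948 genes) was read from its brightest. All 16 arrays were fitted with a mean per group in limma 3.58.1 (R 4.3.3). The p-values were adjusted over the 32000 probe sets kept by the method of Benjamini and Hochberg. The fit was tested on simulated data. Named genes are the 25 at each end, called members of 49 lists, genes the study names and the 8 at each end of the interaction. The members and lists were chosen with earlier results of these data known. Alternatives were other filters, centrings, thresholds and fits, and leaving out each array.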

Additional observations from a re-analysis of the deposited data

Results flagged for a closer look

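The results below were singled out because DE minus MES differed from DEP minus MP at day 4, by a tested interaction in limma. DE and MES differ in CD24 while DEP and MP do not, so a gene that follows CD24 level alone can give such a result. The value given is the interaction on the log2 scale, positive where DE minus MES was the larger. It was positive for Prdm1 (4.56), Akr1c19 (4.29), Slc40a1 (4.12), Rfx6 (4.04), Tmprss2 (3.91), Kit (3.89), Slc34a2 (3.89), Tmem184a (3.81), Grhl3 (3.49) and Elf3 (3.34). It was negative for Nefl (-4.62), Cdk6 (-4.51), Slc6a15 (-4.47), Etv1 (-4.41), Timp4 (-4.18), Cyria (-3.86), Car14 (-3.83), Fndc3c1 (-3.81), Pou5f1 (-3.56), Lef1 (-3.39), Ccnd1 (-3.32) and Sox2 (-2.40).

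Among the positive values, Akr1c19, an aldo-keto reductase, averaged 9.54 in DE and 4.90 in MES, and 5.45 in DEP and 5.10 in MP. Tmprss2, a serine protease of epithelial surfaces, averaged 10.88 in DE and 7.54 in MES, and 8.04 in DEP and 8.60 in MP. Among the negative values, Nefl, the light neurofilament chain, averaged 7.39 in DE and 9.14 in MES, and 12.06 in DEP and 9.19 in MP. Timp4, an inhibitor of metalloproteases, averaged 7.21 in DE and 6.60 in MES, and 11.37 in DEP and 6.57 in MP. What sets these changes was not tested. Each of the 22 interactions kept its direction and its call when any 1 of the 8 day 4 arrays was left out. They were picked as called on these same arrays, most of them as the largest, so this gives them no separate support.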

How the results depend on the processing

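Alternatives were run for 267 genes of the DE and MES comparison and for 22 interactions, and no call reversed under any of them. Centring the arrays on common reference genes moved the median of all genes to 0.35 and the counts to 1314 higher and 401 lower in DE than in MES (76.6% of calls higher, against 54.1%), and the interaction to 1327 and 385 (77.5% against 54.0%, median 0.32). Under it, 32 of the 289 values lost their call and some lists changed by over 1.5 times: visceral endoderm markers higher in DE numbered 10, Nodal genes higher 5, integrins lower 3 and heart muscle genes lower 1. An adjusted p below 0.05 alone gave 2310 and 2735 genes for DE and MES, 1142 and 1050 for DEP and MP, and 1558 and 1533 for the interaction. A log2 FC above 2 gave 277 and 157, 72 and 82, and 171 and 126. limma's treat against 1 gave 396 and 269, 103 and 111, and 180 and 130. Of the 289 values, 125 lost their call at a log2 FC above 2 and 92 under treat. Those lost under treat included Nanog, Twist1, Vim, Gata6, Pdgfra, Krt18 and Acta2. With 16000 probe sets kept, the genes lower in DEP than in MP numbered 208, with fewer genes tested. All 237 gene values still measured kept their calls, but several lists lost members to the filter, among them visceral endoderm higher 1, vessel and blood progenitors lower 2, Hox and Cdx lower 1, Wnt targets lower 4 and mesoderm factors lower 8. Leaving out 1 array gave 790 to 809 and 623 to 710 genes for DE and MES, 312 to 346 and 314 to 336 for DEP and MP, and 695 to 761 and 569 to 683 for the interaction. With the replicate block the counts were 798 and 677, 333 and 334, and 754 and 646, and it changed no call of a named gene. The deviations of same-numbered arrays correlated at r between -0.204 and 0.246, and DE with MES had the highest value, 0.246. Outside the replicate block no pairing was assumed. Whether same-numbered samples came from the same differentiation was not tested. Averaging the probe sets of a gene took the call from Irs1 (-0.73). Counts with DE as the mean of days 2 and 4 were 599 and 512, and 31 genes lost their call. Beyond the thresholds, which set their own counts, the cause of these changes was not tested.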
